A study of Mus musculus with 15 samples.

Results

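Keratins are the intermediate filament proteins of epithelial cells, and this account follows 8 of them, chosen by symbol as markers of luminal or basal mammary epithelium. They were Krt7, Krt8, Krt18 and Krt19 (luminal), Krt5, Krt14 and Krt17 (basal) and Krt80. Of the 8 genes, 6 were listed in all 4 tables of the series, which together hold 14583 genes. Krt5 and Krt17 had no row in any of the 4 tables and were not analysed further here, so the basal keratins are represented by Krt14 alone.

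A keratin filament is built from pairs of 1 type I and 1 type II protein, so no keratin works alone. Krt8 (type II) and Krt18 (type I) form the filaments of simple and luminal epithelium, where Krt7 (type II) and Krt19 (type I) can take part in them. Krt5 and Krt14 are the corresponding pair of basal epithelium, and Krt17 is a type I keratin of basal and wounded epithelium. Krt80 is a type II keratin known from several epithelia that is less often used as a lineage marker. Loss of keratins together with a gain of vimentin is commonly read as a mark of epithelial-mesenchymal transition, and breast tumours are often sorted into luminal and basal classes by these genes.

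RNA was sequenced from 15 samples of 4T1, a mouse mammary carcinoma line, in 5 groups of 3. In 2D culture with 2% FBS, Padi4KO 4T1 cells received vehicle, nuclear expulsion products (NEPs, called exsporosi in the sample labels) or apoptotic debris (apoDBs), with material from 5000 donor cells per 500 recipients. Donor cells carried an inducible caspase-9 (iCasp9) that AP1903 activates, and were Padi4WT for NEPs and Padi4KO for apoDBs. Spheroids of Padi4WT or Padi4KO 4T1 cells spent 3 d in ultralow attachment plates and 7 d in 75% Matrigel. The labels do not give the genotype of the 2D recipients, which comes from the study's methods, as does the making of the knockout with Cas9 and guide RNAs under puromycin selection. The study describes its 4T1 knockouts as clones, and which of them were sequenced is not given in the sources used here, so genotype and differences between clones cannot be told apart. NEPs and apoDBs came from donors of different genotype, so donor genotype and kind of debris cannot be told apart either.

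Every value below rests on the signed fold change and p-value that the authors deposited for each gene and comparison, which they made with limma. Each fold change was converted to log2, and limma's p-values were adjusted over the whole table after Benjamini and Hochberg to give a false discovery rate (FDR). A gene is called higher or lower at an FDR below 0.05. The tables hold no values per sample, so neither sample values nor a spread between the 3 samples of a group can be shown, and depth is unknown. The error given in brackets is the 95% interval that the fold change and p-value imply, taken as the wider of 2 readings, a t distribution with 4 degrees of freedom and a normal distribution. Genes of a comparison were measured in the same samples, so overlap of their intervals is a description. Differences between genes were not tested. The NEP and apoDB comparisons with vehicle share the vehicle samples, and NEPs against apoDBs uses the same treated samples again. Padi4, the targeted gene, was 4.18-fold higher in Padi4WT than in Padi4KO spheroids (FDR 0.000542), and a remaining signal in knockout cells cannot be read from a ratio.

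All 8 genes lie in the 2 mouse keratin clusters. On GRCm38 (GENCODE M21), chromosome 15 holds Krt80 (101347444 to 101370162), Krt7 (101411043 to 101430313), Krt5 (101707070 to 101712898), Krt8 (101996698 to 102004482) and Krt18 (102028180 to 102032027). Chromosome 11 holds Krt19 (100140810 to 100148665), Krt14 (100203162 to 100207548) and Krt17 (100256217 to 100261029). Krt18 is the one type I keratin of the 8 outside the chromosome 11 cluster. It stands beside its partner Krt8, with 23.7 kb between the genes, opposite strands and 0 annotated genes in between.

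Because the partners Krt8 and Krt18 are such neighbours, and their fold changes had overlapping intervals in all 4 comparisons, the stretches just upstream of both genes are shown. They come from RefSeq promoter windows (GRCm38.p6), which run from 250 bases before the RefSeq start to 50 after it. Only the part outside GENCODE exons is printed, 110 bases for Krt8 (chr15:102004483-102004592, minus strand) and 214 for Krt18 (chr15:102027966-102028179, plus strand). Capitals mark a match to CCACCC or its reverse complement, letters bound by Krueppel-like factors.
Krt8: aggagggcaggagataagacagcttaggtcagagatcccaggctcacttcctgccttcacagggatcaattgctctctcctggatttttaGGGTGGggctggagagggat
Krt18: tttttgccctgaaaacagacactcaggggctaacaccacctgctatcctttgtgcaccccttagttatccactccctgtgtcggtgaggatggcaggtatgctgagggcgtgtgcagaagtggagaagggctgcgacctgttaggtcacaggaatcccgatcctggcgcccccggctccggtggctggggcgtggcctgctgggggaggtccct
In the full 250 bases before the RefSeq start, 6 motifs were searched on both strands, and their share among 32851 such windows was counted. CCACCC was found in 28.1% of the windows and the Sp1 box GGGCGG in 32.7%. The TATA box TATAAA was found in 12.4%, and the STAT site TTCNNNGAA in 7.02%. The AP-1 site with any middle base was found in 6.75%, and the interferon response element in 2.98%. Krt8 held CCACCC at 2 places and none of the other 5. The match printed above begins 160 bases before the RefSeq start, and the other begins 137 bases before it, inside a GENCODE exon. Krt18 held none of the 6. Krt7 held GGGCGG at 4 places, Krt14 held CCACCC at 1 place, and Krt5 held none of the 6. The sequences thus show no match shared by the pair among these letters, which says nothing of other sites or of more distant DNA.

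The spheroid comparison asks how Padi4WT and Padi4KO cells differ after growth in 3D. In Padi4WT spheroids Krt8, Krt18, Krt7 and Krt80 were higher, and Krt19 and Krt14 were lower, than in Padi4KO spheroids. The luminal keratins therefore split, with Krt19 going down 6.50-fold while its filament partners went up by at most 2.34-fold. Of the 6 listed genes, 4 were called higher and 2 lower, against 21.7% and 26.1% of all 14053 genes in that table, and their median log2 fold change was 0.75 beside -0.08 for all genes.

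Krt8 was 2.34-fold higher in Padi4WT spheroids, a log2 fold change of 1.23 (0.63 to 1.82), with an FDR of 0.000495. Its partner Krt18 was 1.86-fold higher, at 0.90 (0.38 to 1.42), with an FDR of 0.00328. The intervals of the pair overlap, and the 2 fold changes differ by a ratio of 1.26. Krt7, a type II keratin of simple and glandular epithelium, rose less, by 1.51-fold, with a log2 fold change of 0.59 (0.187 to 0.998) and an FDR of 0.0129, a call that is lost at an FDR below 0.01 and under Benjamini-Yekutieli adjustment. Krt80 was 2.27-fold higher, with a log2 fold change of 1.19 (0.53 to 1.84) and an FDR of 0.00207, and its interval covers that of Krt7 in part.

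Krt19, the type I keratin that lacks most of a tail domain, had the largest spheroid change of the 6, a log2 fold change of -2.70 (-3.64 to -1.76) with an FDR of 5.35e-06. Of the 14053 genes in the table, 13616 had a higher fold change than Krt19. Krt19 was also the 1 gene of the 6 past the study's strict limits, that is a log2 change larger than 2 in size at an FDR under 0.0001, which 4.05% of the genes in that table passed. Krt14, the basal type I keratin, was 4.63-fold lower, at -2.21 (-3.35 to -1.07), with an FDR of 0.00105. Its interval overlaps that of Krt19 and of none of the 4 keratins that rose. Against Krt8, the fold change of Krt19 differs by a ratio of 15.2, and against Krt18 by 12.1, with intervals that do not overlap.

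**Figure D1:**
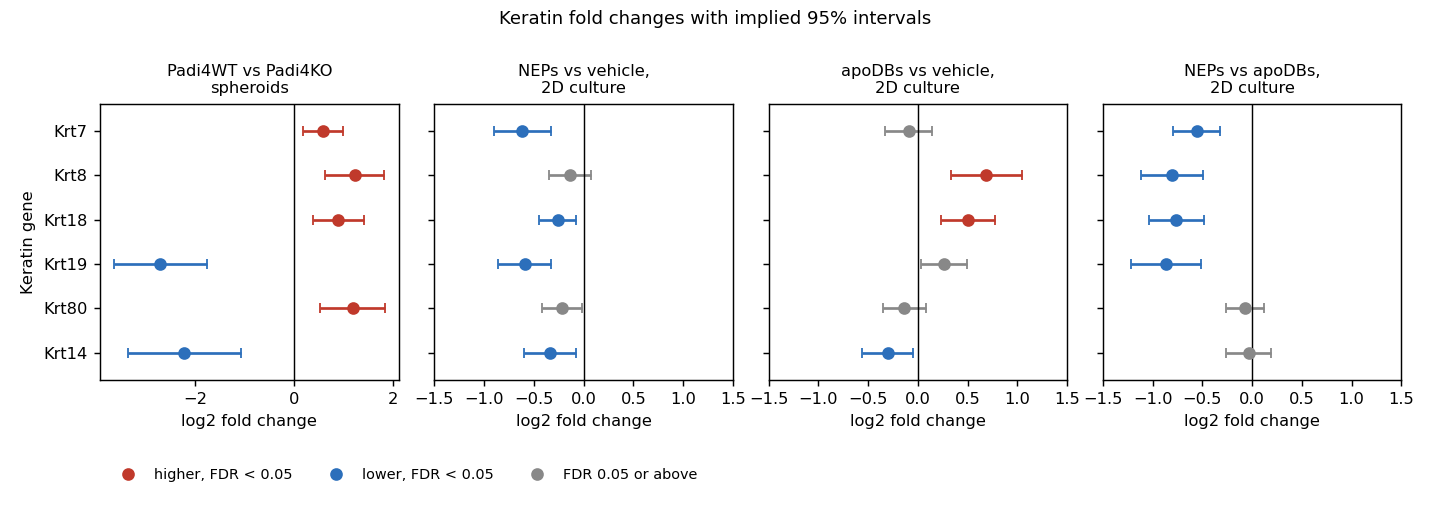
Log2 fold change (x axis) of the 6 listed keratins (y axis) in the 4 comparisons, with points for the fold changes and bars for the implied 95% intervals; the spheroid panel has a wider x axis than the others. Krt19 and Krt14 lie far to the left in spheroids, while Krt7, Krt8, Krt18 and Krt19 lie left of 0 with NEPs against apoDBs.

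Against vehicle, 4 of the 6 members were lower in Padi4KO recipients given NEPs and the other 2, Krt8 and Krt80, did not pass. Krt7, Krt19, Krt14 and Krt18 fell, by 1.53-fold, 1.51-fold, 1.26-fold and 1.20-fold, and no listed member was called higher. The counts of 4 lower and 0 higher of 6 stand beside 31.1% lower and 24.3% higher among all 13541 genes of the table, and the median log2 fold change of the 6 was -0.30. None of the changes reached 2-fold, and 2.65% of all genes passed the strict limits. In bulk RNA, fewer cells that express a keratin and less RNA per cell cannot be told apart.

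The largest changes with NEPs were those of Krt7, at -0.62 (-0.90 to -0.33) with an FDR of 0.000183, and Krt19, at -0.59 (-0.86 to -0.33) with an FDR of 9.83e-05. Krt14 had a log2 fold change of -0.34 (-0.60 to -0.08) and an FDR of 0.0217, and Krt18 one of -0.26 (-0.45 to -0.07) and an FDR of 0.0152. Krt8 was at -0.14 (-0.35 to 0.07), which did not pass (FDR 0.197), although its interval overlaps that of Krt18. Krt80, at -0.22 (-0.42 to -0.02), missed the threshold narrowly with an FDR of 0.0564. All 6 fold changes against vehicle were below the median of all genes, -0.05.

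ApoDBs gave another picture in the same recipients. The luminal pair rose against vehicle, Krt8 by 1.61-fold and Krt18 by 1.41-fold, while Krt14 fell by 1.23-fold and the other 3 were not called. Against the background of 22.9% higher and 22.6% lower among 13307 genes, 2 of the 6 keratins were higher and 1 was lower. The strict limits were passed by 0.233% of all genes and by 0 of these keratins.

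Krt8 had a log2 fold change of 0.69 (0.33 to 1.05) with apoDBs and an FDR of 0.00155, which placed it at the 94.4th percentile of all genes in the table. For Krt18 it was 0.50 (0.23 to 0.77), with an FDR of 0.00223, at the 89.6th percentile. Krt19 pointed the same way at 0.26 (0.03 to 0.49) but had an FDR of 0.0524. Krt7 and Krt80 were at -0.094 (-0.33 to 0.14, FDR 0.424) and -0.14 (-0.35 to 0.08, FDR 0.225), and the interval of neither overlaps that of Krt8. The basal Krt14 was at -0.30 (-0.56 to -0.05), with an FDR of 0.0421, nearly the value it had with NEPs.

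The direct comparison of NEPs with apoDBs tests the difference between both treatments. Krt19, Krt8, Krt18 and Krt7 were lower with NEPs, by 1.82-fold, 1.75-fold, 1.69-fold and 1.47-fold, so all 4 luminal keratins were lower, whereas the intervals of Krt14 and Krt80 include 0. Of the 6 genes 4 were called lower and 0 higher, beside 31.4% and 23.4% of all 13419 genes, and 0 passed the strict limits, which 2.21% of all genes did. The median of the 6 was -0.66, and that of all genes was -0.06.

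Krt19 had a log2 fold change of -0.87 (-1.22 to -0.51) with NEPs against apoDBs, Krt8 one of -0.81 (-1.12 to -0.50) and Krt18 one of -0.76 (-1.04 to -0.48). Their FDRs were 2.27e-05, 6.88e-06 and 2.33e-06, and all 3 lay at or under the 6.77th percentile of all genes. Krt7 followed at -0.56 (-0.79 to -0.32), with an FDR of 4.46e-05. The 4 intervals overlap each other, and an order among the luminal keratins was not tested. Krt14 was at -0.035 (-0.26 to 0.19, FDR 0.746) and Krt80 at -0.073 (-0.27 to 0.12, FDR 0.44), and centred on the median of all genes the value of Krt14 became 0.022. Intervals of both stop short of that of Krt8.

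Read side by side with vehicle as the reference, the 4 luminal keratins reached this difference from different values. For Krt8 the values were -0.14 with NEPs and 0.69 with apoDBs, so most of the gap came with the higher value under apoDBs. Krt7 showed the converse, -0.62 with NEPs and -0.094 with apoDBs. Krt18 and Krt19 were below vehicle with NEPs and above it with apoDBs, with only Krt18 called in both. Subtracting the vehicle comparisons gave -0.83 for Krt8 and -0.85 for Krt19, within 0.02 of the direct values. Padi4 itself was 2.01-fold higher with NEPs than with apoDBs (FDR 1.19e-06). It was 1.80-fold lower with apoDBs than with vehicle (FDR 0.000324), and was not called with NEPs against vehicle (1.11-fold higher, FDR 0.109). RNA carried in with the donor material cannot be told apart from RNA of the recipients.

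**Figure D2:**
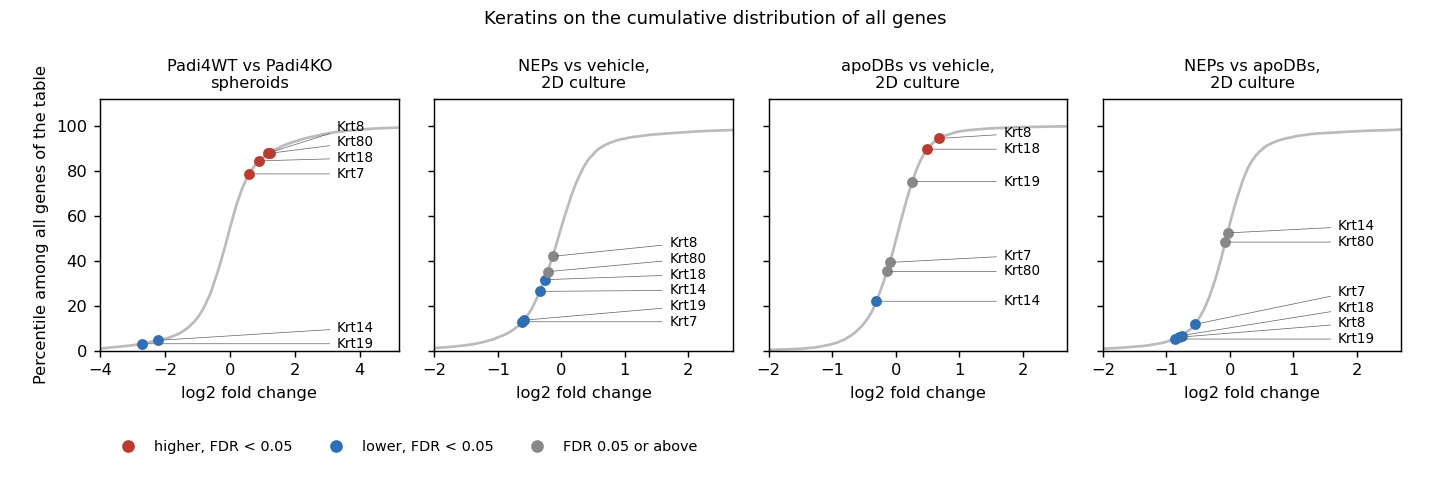
Grey curves show, for each comparison, the cumulative share of all genes (y axis, percentile) up to each log2 fold change (x axis), with the 6 keratins as labelled points. Krt19 and Krt14 sit at the low end in spheroids, and with NEPs against apoDBs Krt19, Krt8 and Krt18 lie at or under the 6.77th percentile while Krt80 and Krt14 lie near the middle.

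Few other genes of the keratin family had a row in the tables. Of 53 protein-coding keratin genes annotated in GENCODE M21, 27 on chromosome 11 and 26 on chromosome 15, 13 had a row in at least 1 table and 8 in all 4. A gene without a row is simply not listed, and its level is unknown. Besides the 6 members, the listed genes were Krt4, Krt10, Krt13, Krt15, Krt16, Krt23 and Krt42, together with the pseudogene Krt8-ps on chromosome 7.

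In spheroids, 2 of 7 other keratin genes were called higher and 3 lower in Padi4WT, with a median log2 fold change of -0.32, beside 21.7% and 26.1% of all genes. The count includes the pseudogene Krt8-ps, without which 1 of 6, Krt23, was higher. Krt4, a type II keratin of stratified internal epithelia, was 57.1-fold lower, at -5.84 (-8.13 to -3.54) with an FDR of 2.65e-05, and was listed in this table alone. How a fold as large as that of Krt4 was bounded is not given in the sources used here, and its read counts are unknown. Krt15, a type I keratin of basal layers, was 5.11-fold lower at -2.35 (-3.63 to -1.08), with an FDR of 0.00176. Its interval overlaps those of the type I members Krt19 and Krt14. Krt23 was 2.66-fold higher, at 1.41 (0.27 to 2.55), with an FDR of 0.0347. Krt10, a keratin of differentiated epidermis named after its values were seen, was 1.95-fold lower with an FDR of 0.0244. Krt13, at -0.32, and Krt16, at 0.69, did not pass (FDR 0.502 and 0.293).

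Krt16, a type I keratin induced in wounded and hyperproliferative epithelium, was higher in both comparisons with NEPs, where the called members were lower. It was 4.04-fold higher with NEPs than with vehicle, at 2.02 (1.32 to 2.71) with an FDR of 6.37e-07, and 3.82-fold higher than with apoDBs, at 1.94 (1.26 to 2.61) with an FDR of 7.19e-07. With apoDBs against vehicle it stood at 0.11 (-0.26 to 0.48), with an FDR of 0.559. Of the 50-base stretches of the longest Krt16 transcript 37.6% occur in other genes, 25.2% in Gm11597 and 12.4% in Krt14, so its values are uncertain to the extent that such reads were divided. Its usual type II partners in wounded epithelium, Krt6a and Krt6b, had no row in any table.

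Other keratins that passed with apoDBs were Krt23, 4.76-fold higher than with vehicle at 2.25 (1.03 to 3.48) with an FDR of 0.00228, and Krt42, 8.09-fold lower at -3.02 (-4.41 to -1.62) with an FDR of 0.000478. Krt10 was 1.63-fold higher there (FDR 0.0182). With NEPs against apoDBs Krt23 was 7.08-fold lower, at -2.82 (-4.21 to -1.43) with an FDR of 0.000383, and it was not listed for NEPs against vehicle. Each of these comparisons listed only 4 or 5 keratins outside the 6 members.

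The annotated sequence of Krt8-ps repeats much of that of Krt8. Of its 896 stretches of 50 bases, 57.4% occur unchanged in Krt8 transcripts, and 26.9% of the stretches of the longest Krt8 transcript occur in Krt8-ps. Its fold changes followed those of Krt8, with log2 values of 1.19 in spheroids, 0.01 with NEPs against vehicle, 0.92 with apoDBs against vehicle and -0.89 with NEPs against apoDBs. The FDRs were 0.0054, 0.97, 0.000978 and 0.000405. How reads that fit both genes were counted is not given in the sources used here, so the Krt8-ps values are uncertain and are not separate evidence on Krt8. Of the other members, Krt14 shared 14.4% of its 50-base stretches with other genes, 11.4% with Krt16 and 3.34% with Krt17, and Krt18, Krt19 and Krt7 shared less than 1%. Krt80 shared 3.88%.

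**Figure D3:**
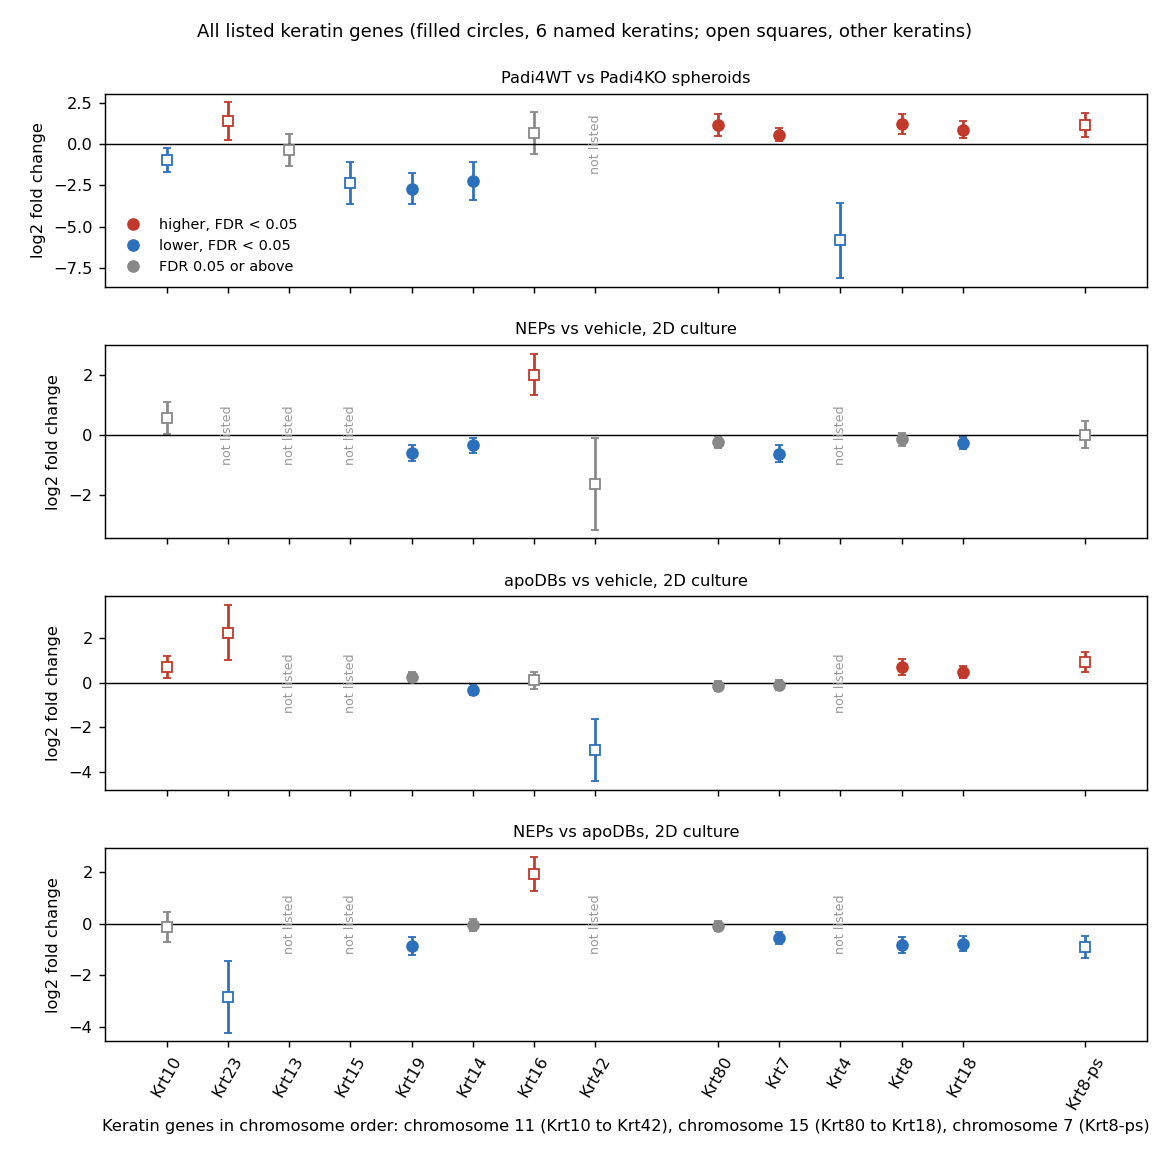
Log2 fold change (y axis, with its own scale in each panel) of every listed keratin gene in chromosome order (x axis), with implied 95% intervals as bars, filled circles for the 6 members and open squares for the others. Krt15, Krt19 and Krt14 on chromosome 11 are low in spheroids, and Krt16 is high in both comparisons with NEPs. Elsewhere on chromosome 11 in spheroids, Krt10 is lower (-0.96), Krt23 is higher (1.41), and Krt13 (-0.32) and Krt16 (0.69) are not called.

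Keratins act together with the proteins that tie their filaments to cell junctions, and 15 such genes were counted. In spheroids, 3 of the 15 were higher and 6 lower in Padi4WT, with a median log2 fold change of -0.28 beside -0.08 for all genes, of which 21.7% were higher and 26.1% lower. The largest changes were in Pkp1 and Dsp, a plakophilin and the desmoplakin that anchors keratin to desmosomes, which were 10.4-fold and 8.23-fold lower (FDR 4.52e-05 and 6.06e-06), and in Evpl, envoplakin, 4.58-fold lower (FDR 0.00011). With NEPs against vehicle, 12 of 14 listed partner genes were lower and 0 were higher, with a median of -0.40, while 31.1% of all genes were lower and 24.3% higher. They included Itgb4 and Dst, which hold keratin at hemidesmosomes, at 2.07-fold and 1.98-fold lower (FDR 1.29e-05 and 6.42e-06), and the plakoglobin gene Jup, 1.88-fold lower (FDR 0.000214).

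With apoDBs against vehicle, 2 of the 14 partner genes were higher and 5 lower, around a median of -0.02, beside 22.9% and 22.6% of all genes. Pkp1 was 1.74-fold higher (FDR 0.00069), whereas Eppk1, epiplakin, and Tchp, trichoplein, were 1.85-fold and 1.55-fold lower (FDR 0.000611 and 0.00203). Against apoDBs, NEPs gave 10 lower and 2 higher of 14, with a median of -0.38, beside 31.4% and 23.4% of all genes. For the lists that follow, the same shares over all genes apply to each comparison. Pkp1 and Jup were 2.34-fold and 2.16-fold lower (FDR 2.53e-05 and 1.15e-05), and Eppk1 was 1.94-fold higher (FDR 1.38e-05).

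Of 7 listed intermediate filament genes outside the keratins, 5 were higher in Padi4WT spheroids and 0 lower, at a median of 1.84 and beside 21.7% and 26.1% of all genes, while Sync and Synm did not pass (FDR 0.468 and 0.477). Vim, vimentin of mesenchymal cells, was 319-fold higher, at 8.32 (5.81 to 10.8) with an FDR of 1.23e-06. As for Krt4, how a fold of this size was bounded is not given in the sources used here. Lmna, a nuclear lamin, and Nes, nestin, were 5.98-fold and 4.47-fold higher (FDR 1.77e-05 and 3.96e-05). Vim also rose in the 2D cultures, 4.05-fold with NEPs and 1.43-fold with apoDBs against vehicle (FDR 2.13e-08 and 0.00144), and was 2.87-fold higher with NEPs than with apoDBs (FDR 9.38e-09). Sync, syncoilin, was 1.67-fold and 2.67-fold higher with NEPs and with apoDBs against vehicle (FDR 0.00101 and 8.13e-05), and 1.54-fold lower with NEPs than with apoDBs (FDR 0.000486). Nes was 1.36-fold higher with NEPs than with vehicle and 1.43-fold higher than with apoDBs (FDR 0.000101 and 9.18e-06), and the lamin gene Lmnb1 was 1.34-fold higher with apoDBs than with vehicle (FDR 0.000689). In 2D culture 4 of 7 genes of this list were higher against vehicle with each treatment, at medians of 0.39 and 0.36, and with NEPs against apoDBs 2 of 6 were higher and 3 lower, at -0.10.

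The 23 luminal markers outside the keratins served as a check of the cell type and as a reference for Krt7, Krt8, Krt18 and Krt19. Epcam and Cdh1, which define epithelial cells, were listed in all 4 tables. In spheroids 12 of 16 listed luminal markers were lower in Padi4WT and 2 were higher, at a median of -2.25, a median on the side of Krt19 and not of Krt8, Krt18 and Krt7. Epcam was 7.16-fold lower (FDR 4.04e-06) and Cdh1, E-cadherin, 8.70-fold lower (FDR 3.37e-06). Ehf, an ETS factor of epithelia, was 3687-fold lower (FDR 4.04e-06) and Ltf, lactoferrin, 214-fold lower (FDR 2.04e-05), while Csn3, a milk casein, was 95.4-fold higher (FDR 6.54e-05). How folds as large as those of Ehf, Ltf and Csn3 were bounded is not given in the sources used here.

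In the 2D cultures, luminal markers counted 7 lower and 3 higher of 15 with NEPs against vehicle (median -0.20) and 7 higher and 1 lower with apoDBs (median 0.24). With NEPs against apoDBs 10 of 15 were lower and 3 higher, at a median of -0.63. Epcam was 1.75-fold lower there (FDR 3.07e-07), beside 1.75-fold for Krt8, whereas Cdh1 was 1.21-fold higher (FDR 0.00276). Against vehicle Epcam was at -0.40 with NEPs and 0.44 with apoDBs (FDR 0.000403 and 0.000922), and Cdh1 was not called with either (FDR 0.0698 and 0.134). The claudin genes Cldn3 and Cldn7 were 3.06-fold and 2.46-fold lower (FDR 4.69e-05 and 5.21e-07), and Ltf was 2.74-fold lower (FDR 5.05e-08). Against vehicle, Areg, an EGF receptor ligand, was higher with NEPs (4.54-fold, FDR 1.37e-07) and with apoDBs (3.06-fold, FDR 2.54e-05), while with NEPs Cldn3 and Cldn7 were 2.53-fold and 2.05-fold lower (FDR 0.000326 and 1.54e-06). With apoDBs Ltf and Ehf were 3.81-fold and 2.36-fold higher than with vehicle (FDR 9.25e-06 and 6.67e-05).

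Of 18 basal and myoepithelial markers outside the keratins, 11 were listed in spheroids, with 5 higher and 4 lower in Padi4WT and a median of 0.28. Trp63, the p63 factor known to drive Krt5 and Krt14, was 18.2-fold lower (FDR 4.98e-05), on the same side as Krt14. Sparc, a matrix protein, and Bmp7 were 38.1-fold and 8.39-fold higher (FDR 6.39e-06 and 1.16e-05). With apoDBs against vehicle Trp63 was 3.48-fold higher (FDR 0.00289) and with NEPs 4.02-fold lower than with apoDBs (FDR 0.00179), whereas Krt14 was at -0.30 and -0.035 in the same comparisons.

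The basal list divided in 2D culture into 4 higher and 4 lower of 10 with NEPs against vehicle (median -0.34), 2 higher and 5 lower of 10 with apoDBs (median -0.33) and 5 higher and 4 lower of 11 with NEPs against apoDBs (median 0.18). Jag2, a Notch ligand, stood at 4.00 on the log2 scale when NEPs were compared with vehicle (FDR 2.64e-08) and was 25.1-fold higher than with apoDBs (FDR 1.46e-08). Mylk, myosin light chain kinase, was 5.93-fold higher and Bmp7 5.27-fold lower with NEPs against vehicle (FDR 0.000147 and 8.24e-07). Sparc was 4.65-fold higher with NEPs than with apoDBs (FDR 1.03e-08). With apoDBs against vehicle Bmp7 and Cdh3, P-cadherin, were 1.96-fold and 1.89-fold lower (FDR 0.000343 and 0.00398).

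**Figure D4:**
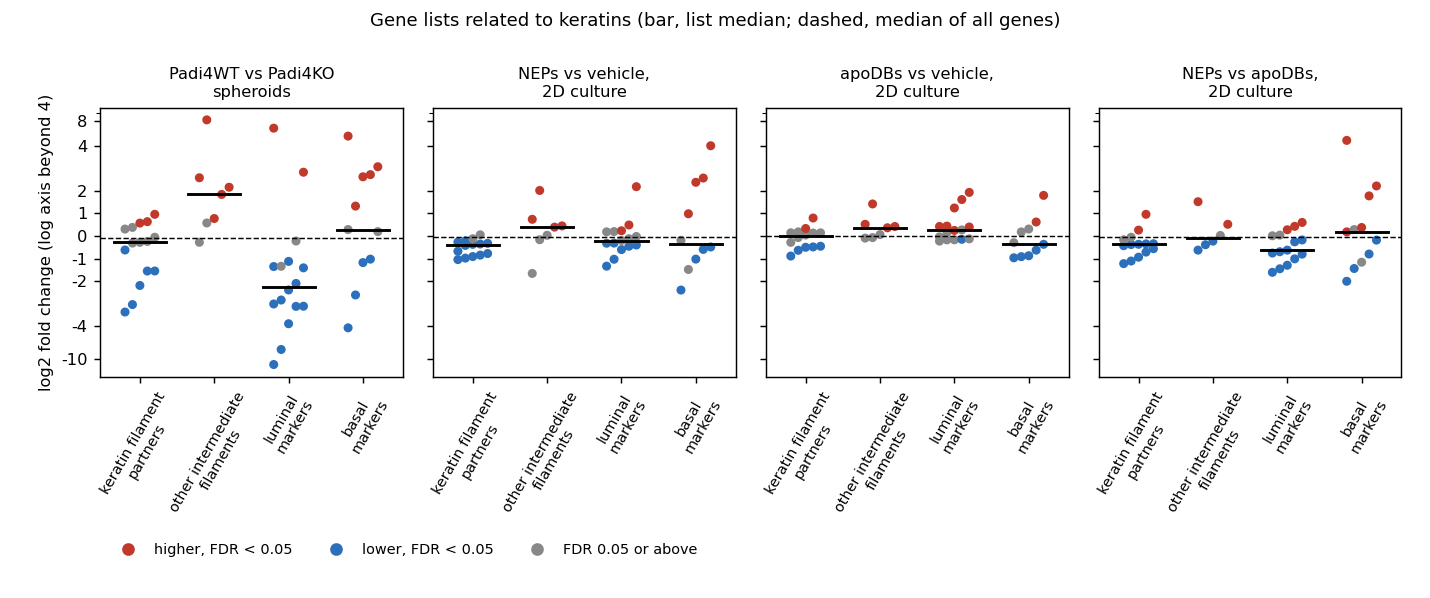
Log2 fold change (y axis, linear to 4 and logarithmic beyond) of each listed gene of 4 gene lists in the 4 comparisons, with list medians as bars and the median of all genes dashed. Luminal markers sit low in spheroids at a median of -2.25, and other intermediate filaments high at 1.84. The median of keratin filament partners is below that of all genes in all 4 comparisons. With apoDBs against vehicle these medians are close, at -0.02 and 0.01.

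Markers of other cell types were mostly without a row. Of 5 fibroblast, 6 leukocyte and 4 endothelial markers, at most 2, 2 and 0 were listed in a table. Col1a1 was 18.3-fold lower in Padi4WT spheroids (FDR 0.000186), where Cd68, a lysosomal protein of macrophages, was 3.27-fold higher (FDR 0.00303). With NEPs against vehicle Cd68 was 2.09-fold higher and Csf1r 2.20-fold lower (FDR 0.000164 and 7.03e-05), and against apoDBs Cd68 was higher by 0.76 on the log2 scale and Csf1r 1.87-fold lower (FDR 0.000642 and 0.000123). The fibroblast marker Pdgfra was 1.30-fold lower with apoDBs than with vehicle (FDR 0.0225) and 1.14-fold higher with NEPs than with apoDBs (FDR 0.0353). The part of other cell types in the keratin values was not tested.

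How alike the keratins were can be put as a distance over 3 comparisons, spheroids and both treatments against vehicle, among the 12686 genes of all 4 tables. It is the Euclidean distance between log2 fold changes. Krt8 and Krt18 lay 0.40 apart, and Krt18 ranked 46th among the genes nearest to Krt8. The 3 genes nearest to Krt8 were Mrps6, Sept5 and Cavin1, at 0.12 to 0.16, and those nearest to Krt18 were Trp53i11, Tnfaip8l1 and Polr2l, at 0.03 to 0.13. Krt19 was 3.98 from Krt8 and 0.79 from Krt14. The first distance was nearly all from spheroids, where the log2 fold changes of Krt8 and Krt19 differ by 3.93. In the 3 comparisons in 2D culture the interval of Krt19 overlapped that of Krt8 each time, and it did not overlap that of Krt14 with apoDBs against vehicle or with NEPs against apoDBs. Its nearest genes were 4930546K05Rik, Lnx1 and Gm13205, at 0.14 to 0.23, and those of Krt14 were Tomm6os, Rev3l and Gm37132, at 0.13 to 0.17. Ptov1, Bag6 and Midn were nearest to Krt7 (0.07 for each), and Cmtm3, Suv39h1 and Ttc7b were nearest to Krt80 (0.04 to 0.11). The vehicle samples enter 2 of the 3 values, and likeness over so few values is a description.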

How the data were processed

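RNA-seq of 15 samples in 5 groups of 3 was read from 4 tables, 1 per comparison. The authors made them with limma. The submitters' processing notes name mm9, and the study's methods name the CCBR Pipeliner. Aligner, counting tool, filter and normalization are not given in the sources used here. The fold change in the authors' deposited tables is a signed score, linear, with a decrease given as the negative of its inverse ratio. The p-value in the deposited tables is the p-value of each gene without adjustment. These columns are the authors' own comparisons, and they were used because the tables hold nothing else but identifiers and, in 1 table, a column of notes that was left out.

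Fold changes were converted to log2, and Benjamini-Hochberg FDRs were computed within each table. The study states in general that experiments were repeated, but neither the labels nor the methods say whether the 3 RNA samples of a group were separate cultures, so p-values measure the spread between these samples, which may be technical. The tables hold 0 columns of values per sample. Genes were matched by Ensembl identifier without version, since 19 symbols of 1 table had become dates. At least 99.9% of identifiers in each table are in GENCODE M21 (GRCm38), 93.6% to 93.7% with the same version, and positions are those of GENCODE M21. No model was refitted, and intervals follow from fold change and p-value. The members and gene lists were chosen with earlier results of these data known. Named genes were every member, at most 5 called keratins per table with an absolute log2 fold change above 1, at most 3 called genes per list and table with the largest absolute log2 fold change, and the 3 genes nearest to each member. Epcam and Cdh1 were named as defining markers. Alternatives were other limits, another adjustment, another set of genes, centring, matching by symbol and differences of tables. The depth is unknown. The code, in Python 3.11.15 with numpy 2.4.6, pandas 2.3.3, scipy 1.17.1 and matplotlib 3.10.9, was tested on simulated data.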

Additional observations from a re-analysis of the deposited data

Results flagged for a closer look

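NEPs and apoDBs moved several keratins differently against the same vehicle samples, and the direct comparison of NEPs with apoDBs, which tests that difference, passed an FDR of 0.05 for 6 keratin genes listed in all 4 tables. The differences on the log2 scale were -0.56 for Krt7, -0.81 for Krt8, -0.76 for Krt18 and -0.87 for Krt19, with Krt8-ps at -0.89, a value that is uncertain because its sequence is in large part shared with Krt8. Krt16 differed the other way, by 1.94. Krt14, Krt80 and Krt10, the other keratin genes listed in all 4 tables, did not pass. The 6 that passed include the pseudogene Krt8-ps. Among all 13419 genes of that comparison 31.4% were lower and 23.4% higher, so calls were common there.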

How the results depend on the processing

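Limits that ask for size removed most calls among the members, as the 2D changes of the 6 members were all under 2-fold. At an absolute log2 fold change above 1, members in spheroids were 2 higher (Krt8, Krt80) and 2 lower (Krt14, Krt19). Of the 6 members, 0 were called in either direction of any 2D comparison. Other keratins were 2 higher and 2 lower in spheroids, and 1 higher and 0 lower with NEPs against vehicle. They were 1 higher and 1 lower with apoDBs against vehicle, and the same with NEPs against apoDBs. The share of all genes at this limit was not counted. Under the strict limits (FDR below 0.0001, absolute log2 fold change above 2), 0 members were higher and 1 lower in spheroids, with 0 in 2D culture. Other keratins gave 0 higher and 1 lower in spheroids and 0 in both comparisons with apoDBs. With NEPs against vehicle they gave 1 higher, Krt16, where 2.65% of all genes passed. For the settings that follow, counts that changed little or not at all are mostly left out. With an FDR below 0.01, members were 2 lower with NEPs and 0 lower with apoDBs against vehicle, and 3 higher in spheroids, where Krt7 was lost, and other keratins were 1 higher in spheroids. Benjamini-Yekutieli adjustment also gave 2, 0 and 3 members, without Krt7 in spheroids, and 0 other keratins higher in spheroids. With an unadjusted p below 0.05, other keratins were 2 higher and 1 lower with NEPs against vehicle, where 60.8% of all genes passed. The share of all genes was not counted for an FDR below 0.01, for Benjamini-Yekutieli adjustment or over the genes of all 4 tables. Over the genes of all 4 tables, which leaves out keratins listed in fewer, other keratins were 1 higher and 1 lower in spheroids, 0 lower with apoDBs against vehicle and 1 lower with NEPs against apoDBs. Centring on the median of all genes turned Krt14 with NEPs against apoDBs from -0.035 to 0.022, neither called, and reversed no other member. Matching by symbol changed no count. No paired analysis was possible because the tables hold no values per sample, so neither a replicate block nor leaving out a replicate could be computed, and depth could not be examined.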
